A study of Mus musculus with 2 samples.

Results

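The Hox genes of the 4 mouse clusters were measured in 2 pools of intestinal RNA, 1 from WT mice and 1 from Lrrc19 KO mice. Members were taken as all probe sets whose only platform symbol was Hoxa, Hoxb, Hoxc, or Hoxd with a number. This gave 48 probe sets of 33 genes, out of 18193 genes that had an own probe set on the array. The mouse annotation holds 39 such genes, and those without an own probe set were not analysed here. Each array carried equal shares of RNA from 5 mice (2 males and 3 females). All mice were 6 weeks old, untreated, of C57BL/6 background, and kept from birth in an SPF facility. The pools thus differed by label only in Lrrc19, a leucine-rich repeat receptor of the gut. The KO line was made earlier by the same group, and the deleted exons are not given in the sources used here. EDTA was used to release the cells, and magnetic sorting then removed macrophages, dendritic cells, B cells, and cells with CD4 or CD8. Each genotype had 1 array, so no value has a replicate check, no test was possible, and precision is limited by the number of arrays.

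Hox genes encode homeodomain transcription factors that set position along the body axis. They lie in 4 clusters, and genes with the same number in different clusters are paralogs that descend from a shared ancestor. Low numbers lie toward the 3′ end and are used in anterior structures, whereas high numbers lie toward the 5′ end and are used in posterior ones. In the gut, the embryonic tube carries Hox expression in nested domains, and the group 13 genes mark its hindmost part, from which the colon and rectum arise. Adult gut keeps part of this pattern, in the epithelium and also in the surrounding mesenchyme and smooth muscle.

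On the GRCm38.p6 annotation of RefSeq, cluster A lies on chromosome 6 with 11 genes, B on chromosome 11 with 10, C on chromosome 15 with 9, and D on chromosome 2 with 9. Promoter windows of 250 bases before the start site were listed for 22 Hox genes, among them 19 of the measured genes. These 24 windows had a median GC content of 58.6% and a median of 12.5 CpG dinucleotides, compared with 52.4% and 6 over all 32851 windows. The sequences of 4 genes are shown because Hoxd13, Hoxa9, and Hoxa5 were at least 1.5-fold higher in the KO pool and Hoxd8 had the lowest difference among the genes at or above the floor with a listed window. The windows are chr2:74667975-74668224 on the plus strand for Hoxd13, chr6:52227371-52227620 on the minus strand for Hoxa9, chr6:52204588-52204837 on the minus strand for Hoxa5, and chr2:74704365-74704614 on the plus strand for Hoxd8. Capitals mark the GC box core GGGCGG and the TATA box core TATAAA, each searched on both strands with overlaps allowed.
Hoxd13: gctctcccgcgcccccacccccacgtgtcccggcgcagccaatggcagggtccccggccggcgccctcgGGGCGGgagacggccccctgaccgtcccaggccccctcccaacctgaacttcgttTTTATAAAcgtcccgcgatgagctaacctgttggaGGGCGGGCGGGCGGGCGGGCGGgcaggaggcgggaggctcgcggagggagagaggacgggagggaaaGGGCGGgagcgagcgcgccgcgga
Hoxa9: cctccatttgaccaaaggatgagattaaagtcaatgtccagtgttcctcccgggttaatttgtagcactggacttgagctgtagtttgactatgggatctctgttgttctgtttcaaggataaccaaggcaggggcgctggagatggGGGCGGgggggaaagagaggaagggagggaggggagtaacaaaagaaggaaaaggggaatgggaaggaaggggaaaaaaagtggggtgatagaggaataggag
Hoxa5: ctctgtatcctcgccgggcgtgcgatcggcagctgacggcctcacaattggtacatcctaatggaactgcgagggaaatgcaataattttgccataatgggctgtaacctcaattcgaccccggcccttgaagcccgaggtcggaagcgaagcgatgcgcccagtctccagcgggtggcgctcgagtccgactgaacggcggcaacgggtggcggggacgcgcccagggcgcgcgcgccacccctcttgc
Hoxd8: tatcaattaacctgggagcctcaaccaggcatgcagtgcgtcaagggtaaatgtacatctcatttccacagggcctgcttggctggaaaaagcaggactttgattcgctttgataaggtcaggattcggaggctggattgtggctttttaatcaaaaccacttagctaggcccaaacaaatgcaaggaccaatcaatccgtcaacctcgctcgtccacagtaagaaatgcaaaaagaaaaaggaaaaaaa

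The Hoxd13 window had a GC content of 74.4% with 31 CpG dinucleotides, and held 7 GC box cores, most of them overlapping in 1 repeat, and 2 overlapping TATA box cores on opposite strands. The Hoxa9 window (49.6% GC, 3 CpG) held 1 GC box core, and the windows of Hoxa5 (63.6% GC, 28 CpG) and Hoxd8 (44.4% GC, 6 CpG) held neither motif. A GC box core was present in 10 of the 24 Hox windows (41.7%) and in 32.7% of all windows, and a TATA box core in 4 (16.7%) and in 12.4%. The core TTTATG, which is bound by the intestinal homeodomain proteins Cdx1 and Cdx2, was found in 5 Hox windows (20.8%), those of Hoxa7, Hoxb8, Hoxd11, Hoxd3, and Hoxd4, and in 10.8% of all windows. These matches describe letters only, not sites in use.

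The intensities are in arbitrary units on a linear scale. The brightest probe set stood for each gene. Differences are log2 of the KO value minus log2 of the WT value. The median of all probe set values on both arrays, 127, served as a floor, under which a signal was treated as not distinguishable from background. Lrrc19 was 905 in WT and 212 in KO on its brighter probe set (4.26-fold lower), and 391 and 20.9 on the other. All 15 epithelial markers reached the floor, with summed intensities of 144951 in WT and 150300 in KO, but so did all 15 smooth muscle markers (71361 and 94415), and the material was therefore not epithelium alone. Over 12518 genes at or above the floor in at least 1 pool, the median log2 difference was 0.01 and its robust SD was 0.27. The scaling between both arrays is unknown. All 18 spike-in probe sets, for bacterial and phage transcripts added at hybridization, were higher on the KO array, with a median log2 difference of 0.50, and scaling to them would lower every difference by that amount. In these pools, fewer cells of a type and less RNA per cell cannot be told apart.

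Of the 33 Hox genes, 21 reached the floor in at least 1 pool (63.6%, compared with 68.8% of all genes), and 19 did so in both. Hoxc8 and Hoxd13 reached it in the KO pool alone. The other 12 were under the floor in both pools. The group 13 genes of clusters B and D were brighter in the KO pool, several cluster A genes were moderately higher in it, and cluster B genes of groups 2 to 5 were nearly level. By the measured values, 2 genes were at least 2-fold higher in KO, Hoxb13 and Hoxd13, and none was 2-fold lower. Hoxd13 counts here through a WT value under the floor. The background for these counts is 0.559% of all genes at or above the floor for higher and 0.407% for lower. With a 1.5-fold rule, which was added after the values were seen, 5 genes were higher (Hoxa5, Hoxa9, Hoxb13, Hoxc8, and Hoxd13) and none was lower, beside 2.78% and 3.4% of all genes. Under the spike-in scaling, by this rule, 2 were higher (Hoxb13 and Hoxd13) and 3 were lower (Hoxb6, Hoxb9, and Hoxd8). The share of all genes passing the rule was not counted under that scaling. The median of all genes was then -0.49, so the 3 lower genes cannot be read as particular to Hox genes. With the mean of all probe sets 3 were higher, since Hoxa9 (0.57) did not pass and Hoxd13 did not reach the floor. The difference was above 0 in 16 of 21 genes (76.2%, compared with 52.1% of all genes), and in 14 of the 19 that reached the floor in both pools (73.7%, compared with 51.5%). The median was 0.24 over the 21 genes and 0.07 over the 19. Under the spike-in scaling, 5 of 21 were above 0 (23.8%, compared with 3.95% of all genes), and the Hox median was -0.26 beside -0.49 for all genes.

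**Figure D1:**
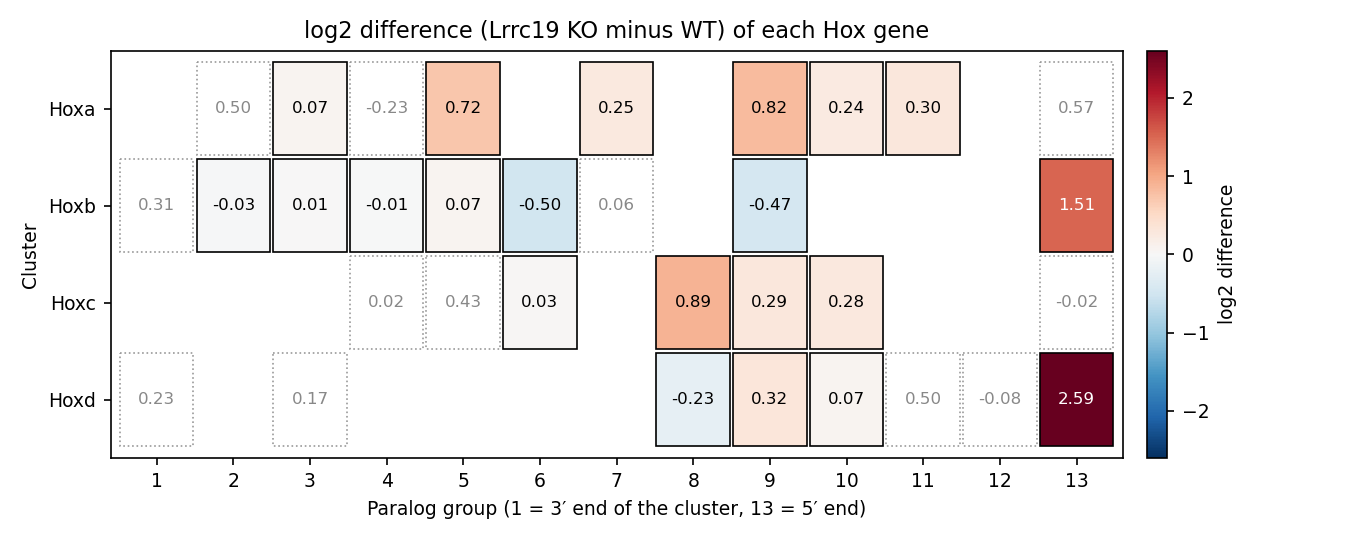
Each square is 1 Hox gene with a probe set of its own, placed by cluster (rows) and paralog group (columns), with the log2 difference between the KO and WT pools as number and colour. Dotted white squares are genes under the floor of 127 in both pools, and blank places have no gene or one not analysed here. Values are as measured, and those of Hoxd13 (2.59) and Hoxc8 (0.89) are set against WT values under the floor, with bounds of at least 2.00-fold and 1.54-fold. The darkest squares are Hoxd13 and Hoxb13 (1.51), both in group 13, and blue squares appear for Hoxb6, Hoxb9, and Hoxd8.

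Group 13 holds the last gene of each cluster. Hoxb13, which in the adult mouse is expressed in the distal colon, rectum, and prostate, had an intensity of 259 in WT and of 738 in KO. Its single probe set was above the floor in both, with a log2 difference of 1.51 (2.85-fold higher in KO). It stayed past 2-fold under all 10 alternatives tried, with 1.01 as the lowest value under the spike-in scaling. Several alternatives could not alter a gene with 1 probe set above the floor in both pools. These were the other floors, both changes of probe sets, and values raised to the floor, which all left 1.51. With the floor at the 75th percentile (354), its WT value lay under the floor, so its fold is only a bound there. Between Hoxb13 and the next gene of its cluster, Hoxb9, the annotation places 6 other genes, among them Mir196a-1, but no Hox gene. Hoxb9 itself had the opposite sign (330.2 in WT and 239 in KO).

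Hoxd13, a regulator of limb, genital, and hindgut development, was 42.4 in WT and 255 in KO on its brightest probe set (log2 difference 2.59). Since the WT value lay under the floor, the fold is given as a bound, at least 2.00-fold higher in KO. This bound rests on the floor and the scaling. It was 1.06-fold with the floor from chemosensory receptor genes, 1.42-fold under the spike-in scaling, 1.89-fold with equal medians of both arrays, and 1.98-fold after quantile normalization, so a 2-fold difference of Hoxd13 is not settled. Its second probe set was 70.5 in WT and 57.0 in KO. These values lay below the floor and were opposite in sign. With both probe sets averaged on the log2 scale, the difference was 1.14 but the gene was under the floor in both pools. Hoxa13, which acts with Hoxd13 in the hindgut and limb, was 57.1 in WT and 84.9 in KO (log2 difference 0.57), and Hoxc13, a hair and nail gene, was 88.8 and 87.4 (-0.02). Both had 1 probe set and stayed below the floor, and they get no fold. Of the 4 genes of the group, therefore, Hoxb13 alone was measured above the floor in both pools.

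In cluster A, 6 of 9 measured genes reached the floor, all of them in both pools, and all 6 were higher in the KO pool as deposited. Their median log2 difference was 0.27. Hoxa9, known for its part in blood progenitors and the posterior axis, was 433 in WT and 766 in KO (0.82), and its second probe set gave 219.9 and 276 (0.33). Hoxa5, which is needed in the developing lung and gut, was 299.9 in WT and 495 in KO (0.72), and its second probe set, which can match several transcripts, gave 321 and 456 (0.51). Both probe sets of both genes were thus above the floor and higher in the KO pool, Hoxa9 by unequal amounts. Under the spike-in scaling, Hoxa5 and Hoxa9 stayed above 0 (0.22 and 0.32), whereas the other 4 genes were below it.

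These 4 genes of cluster A differed by less. Hoxa11 and Hoxa10, which pattern the limb and the female reproductive tract, were 473 and 583 (0.30) and 141 and 166 (0.24). Hoxa7 was 236 in WT and 280.3 in KO (0.25). Hoxa3, which is required for the thymus and parathyroid, was 285 and 299.6 (0.07), and its other 3 probe sets were under the floor. The differences of Hoxa7, Hoxa10, and Hoxa11 were close to the robust SD of all genes (0.27), so they cannot be told from the spread between the arrays. Hoxa2 (36.2 in WT and 51.3 in KO), Hoxa4 (63.3 and 54.1), and Hoxa13 did not reach the floor.

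In cluster B, 7 of 9 measured genes reached the floor, all in both pools, with a median log2 difference of -0.01. Genes toward the 3′ end were nearly level. Hoxb2, a hindbrain gene, was 221 in WT and 217 in KO (-0.03). Hoxb3 was 410.1 and 412 (0.01), and its second probe set was also level at 248 and 248. Hoxb4, studied in blood stem cells, was 291 and 290.1 (-0.01). Hoxb5, a regulator of Ret in enteric neural crest, was 227 and 238 (0.07). These 4 genes lay within 0.07 of 0 on the log2 scale, and the 2 probe sets of Hoxb3 gave the same picture. With the floor from chemosensory receptor genes (239.7), Hoxb2 and Hoxb5 did not reach it in either pool, so their level values may be background signal.

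Toward the 5′ end of cluster B the values diverged. Hoxb6 was 729 in WT and 515 in KO (-0.50), and Hoxb9, a gene of thoracic and mammary development, was 330.2 and 239 (-0.47). Neither passed 1.5-fold as deposited. Under the spike-in scaling, where the median of all genes was -0.49, both did (-0.998 for Hoxb6 and -0.962 for Hoxb9). Each had 1 probe set. Hoxb13 differed from both in sign. Hoxb7 (57.9 and 60.4) and Hoxb1 (24.8 and 30.8) were under the floor. A further probe set, annotated to both Hoxb8 and Hoxb7 and therefore not a member, was 1042 in WT and 494 in KO (log2 difference -1.08), 2.11-fold lower. It was looked at after the values were seen and cannot be assigned to either gene. The 2 probe sets annotated to both Hoxd4 and Hoxd3 were under the floor.

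**Figure D2:**
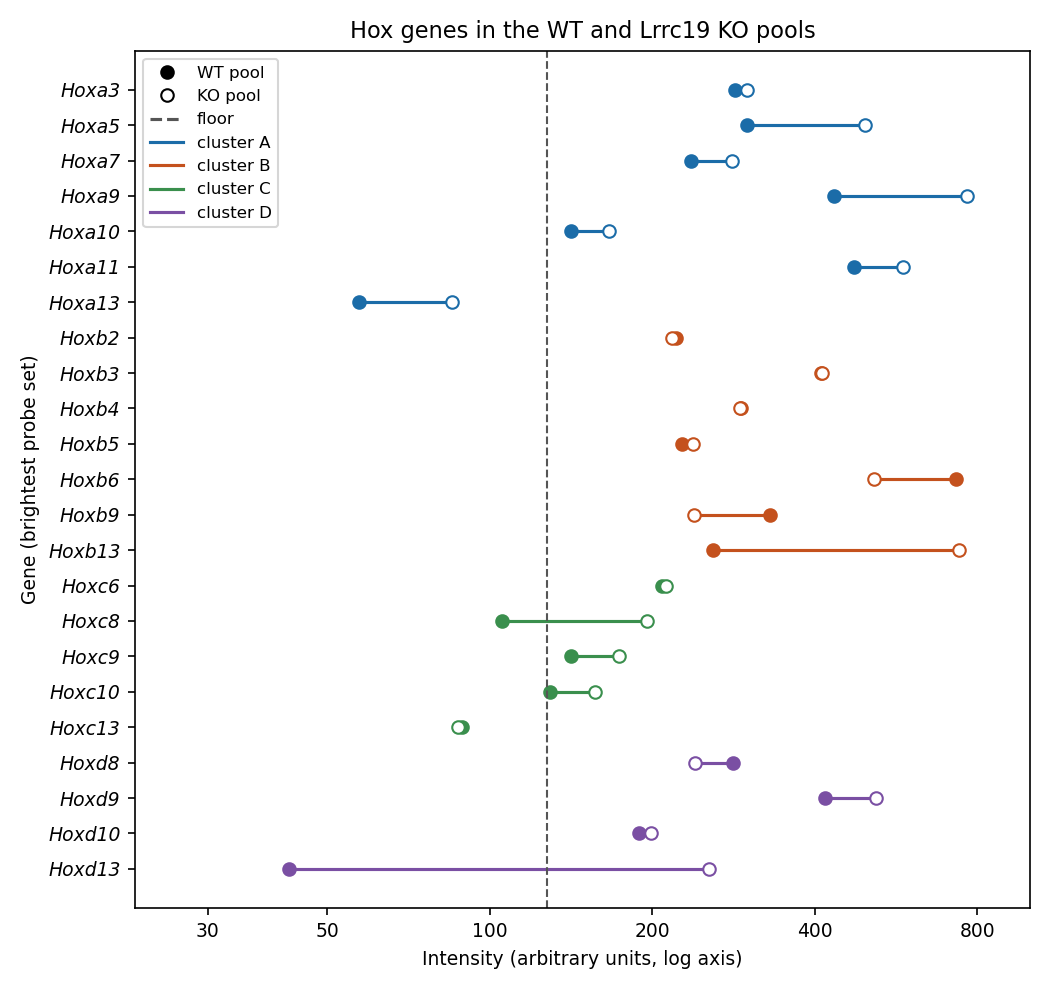
Intensity (log axis, arbitrary units) of each Hox gene at or above the floor, and of all 4 genes of group 13, in the WT pool (filled) and the KO pool (open). There was a single array of each genotype, hence no error bars. The line colour is the cluster, with the floor of 127 dashed. The long lines belong to Hoxd13, Hoxb13, Hoxa9, Hoxa5, and Hoxc8, and the open circle lies left of the filled one for Hoxb6, Hoxb9, and Hoxd8. Levels of different genes are not comparable, since each probe set has its own brightness.

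In cluster C, 4 of 7 measured genes reached the floor and their median log2 difference was 0.29. Hoxc8, which patterns the thoracic skeleton and motor neurons, was 105 in WT and 195 in KO (0.89). The WT value was under the floor, and the bound was at least 1.54-fold higher in KO, or 1.09-fold under the spike-in scaling. Hoxc9 was 141 in WT and 173 in KO (0.29), and Hoxc10, a lumbar gene, was 129 and 157 (0.28). Hoxc6 was 208 and 212 (0.03), on a probe set that can match several transcripts, and its other 2 probe sets were under the floor. All 4 were above 0, but Hoxc9 and Hoxc10 were near the floor and within about 1 robust SD of 0. Hoxc4 (103 and 104), Hoxc5 (80.9 and 109), and Hoxc13 were under it. When the floor was raised to the 75th percentile or taken from chemosensory receptor genes, no gene of cluster C reached it.

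In cluster D, 4 of 8 measured genes reached the floor, with a median log2 difference of 0.20, or 0.07 over the 3 genes that reached it in both pools. Hoxd9 was 417 in WT and 519.6 in KO (0.32). Hoxd10, which is active in hindlimb and lumbar motor neurons, was 189 and 199 (0.07). Hoxd8 was lower in the KO pool by its values, at 282 and 240.3 (-0.23), and its second probe set, which can match several transcripts, gave 159 and 124 (-0.36). Both probe sets of Hoxd8 thus had the same sign, opposite to that of Hoxd9, but the second was under the floor in KO. The difference of -0.23 was within the robust SD of all genes (0.27), so it cannot be told from the spread between the arrays. Hoxd1 (21.2 and 24.7), Hoxd3 (62.1 and 69.8), Hoxd11 (74.4 and 105, 0.50), and Hoxd12 (69.2 and 65.5) were under the floor. Between Hoxd10 and Hoxd13, no gene of the cluster was measured above it.

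**Figure D3:**
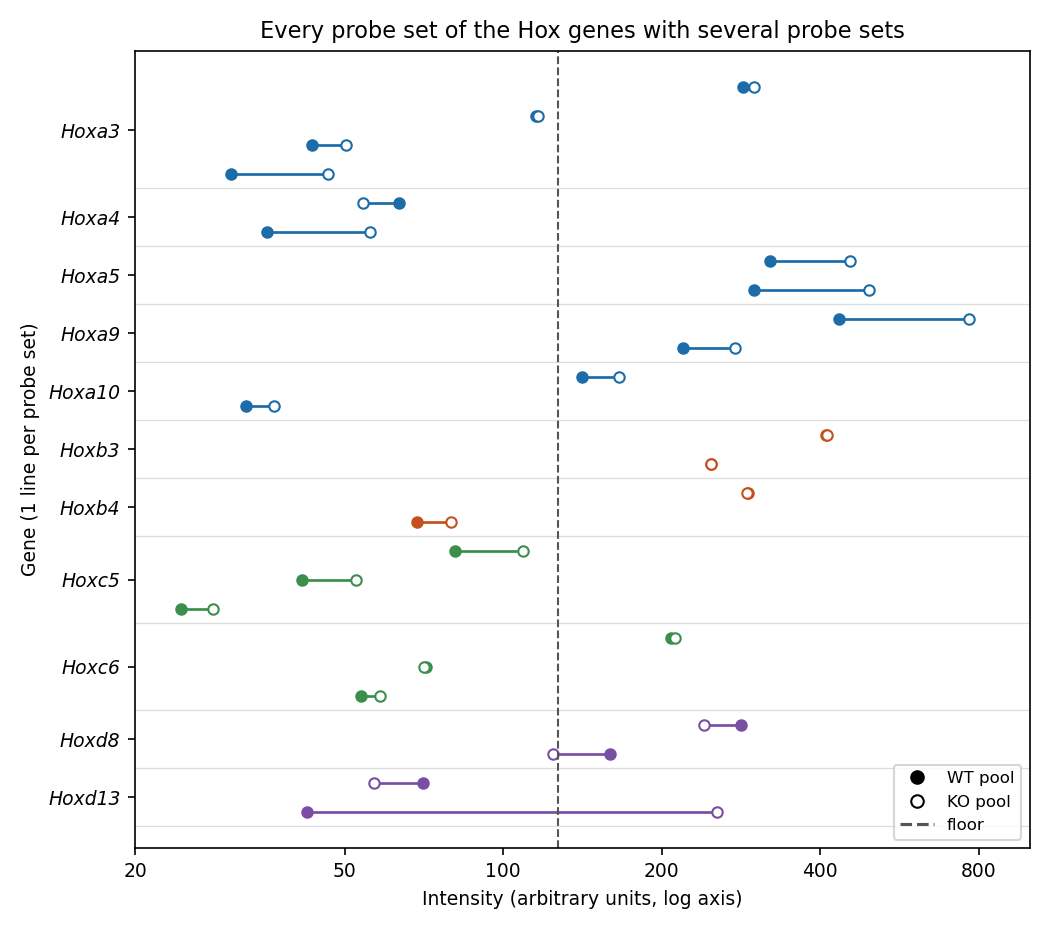
Intensity (log axis, arbitrary units) of every probe set of the 11 Hox genes with several probe sets, 1 line per probe set, in the WT pool (filled) and the KO pool (open); the dashed line is the floor of 127. Of the 4 genes with 2 probe sets at or above the floor, Hoxa5 and Hoxa9 have both higher in KO, Hoxd8 has both lower, and Hoxb3 has both level. The Hoxd13 probe sets run in opposite directions.

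Over the genes of all 4 clusters, groups 9 to 13 had the highest median difference, and the 2 lower classes could not be ranked. Groups 1 to 3 had a median log2 difference of 0.01 over 3 genes at or above the floor (Hoxa3, Hoxb2, and Hoxb3). Clusters C and D gave no gene to that class. The median was 0.05 over 8 genes for groups 4 to 8, and 0.30 over 10 for groups 9 to 13. The robust SD of all genes was 0.27. Over all 33 measured genes, the 2 lower classes stood in reverse order (0.17 for groups 1 to 3 and 0.04 for groups 4 to 8). In the last class, 9 of 10 genes were above 0, and Hoxb9 was the exception. The Spearman rank correlation of paralog number and difference was 0.57 over the 21 genes. It was 0.52 over the 19 genes that reached the floor in both pools, 0.42 over the 19 left without group 13, and 0.27 over all 33 genes, those under the floor included. These correlations are across genes measured on the same pair of arrays, which are not independent replicates, and the last 3 were chosen after the values were seen. The summed intensity of members that reached the floor was 2556 in WT and 3795 in KO for groups 9 to 13, and 2379 and 2465 for groups 4 to 8. These sums include Hoxd13 and Hoxc8, which reached the floor through the KO pool alone, and this selection favours the KO side. They also weigh each gene by the brightness of its probe set, so no trend is drawn from them.

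Paralogs of 1 group had unlike differences. In group 9, in which all 4 genes reached the floor in both pools, Hoxa9 (0.82), Hoxd9 (0.32), and Hoxc9 (0.29) were above 0 and Hoxb9 (-0.47) was below, a range of 1.29. In group 10, Hoxa10, Hoxc10, and Hoxd10 lay between 0.07 and 0.28. In group 8, Hoxc8 (0.89 as measured, 0.62 with the WT value raised to the floor) and Hoxd8 (-0.23) differed in sign, in group 6 Hoxb6 (-0.50) stood beside Hoxc6 (0.03), and in group 5 Hoxa5 (0.72) stood beside Hoxb5 (0.07). Where clusters A and B were both measured above the floor in a group, in groups 3, 5, and 9, the cluster A gene had the higher difference. In group 3 the gap was only 0.06, less than the robust SD of all genes (0.27). Where 1 gene of the pair was under the floor, the cluster A gene was higher in groups 2 and 7 and lower in groups 4 and 13. The median of cluster A exceeded that of cluster B by 0.28, a gap close to the robust SD of all genes. No uniform scaling of the arrays can alter this gap, so such scalings do not test it. Whether these gaps exceed the spread between mice was not tested.

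None of the listed genes that act with or upon Hox proteins passed 2-fold. Only 0.559% of all genes at or above the floor were at least 2-fold higher, and 0.407% at least 2-fold lower. The absence of such genes is therefore no particular trait of these lists. None of 7 Hox cofactors at or above the floor, the Pbx, Meis, and Pknox homeodomain partners, passed it, and their median log2 difference was 0.24. Meis2 was 260.3 in WT and 357 in KO (0.46), and Pbx3 was 413 and 543 (0.40), each with every other probe set at or above the floor in the same direction. Cdx1, an upstream activator of Hox genes that is kept in adult intestinal epithelium, was 1282 in WT and 933 in KO (-0.46). Cdx2, its paralog, was 3309 and 3436 (0.05), and 453 and 334 (-0.44) on a second probe set. The other 4 members of the Cdx and ParaHox list were under the floor. The sign of Cdx2 therefore depended on the probe set.

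Chromatin and signalling regulators had medians near 0. Of 22 Polycomb and Trithorax regulators, which keep Hox genes silent or active, none passed 2-fold, and the median was 0.05. The difference was above 0 in 15 of them and below 0 in 7, beside 52.1% of all genes above 0. Dot1l (1012 in WT and 1329 in KO) and Wdr5 (273 and 354) had the largest differences. A second probe set of Wdr5 was nearly level (190 and 195), and that of Dot1l was higher in KO (332 and 368). Of 9 retinoic acid enzymes and receptors, none passed it and the median was 0.00. Dhrs3, a retinaldehyde reductase, was 889.7 in WT and 622 in KO (-0.52), and Cyp26b1, which degrades retinoic acid, was 176 and 136. Among 16 neighbours and noncoding RNAs of the clusters at or above the floor, the median was 0.05. The largest differences there belonged to cluster A, with the antisense RNA Hoxa11os at 261 in WT and 421 in KO (0.69) and the homeobox neighbour Evx1, beyond Hoxa13, at 124 and 179 (0.53, with WT below the floor). Of 12 other regulators of gut patterning, none passed 2-fold and the median was -0.03. Tbx3 (358 and 496, 0.47) had 2 further probe sets above the floor with the opposite sign, and Shh, a hedgehog ligand, was 133 and 96.5, the latter under the floor, which bounds it at 1.04-fold lower.

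Markers of gut regions also differed between the pools. Of 16 colon markers at or above the floor out of 18 measured, 3 were at least 2-fold higher in KO and none was lower. Atp12a, a proton pump subunit, was 531 in WT and 4760 in KO. Aqp8, which forms a water channel, was 2019 and 4873, and the acute-phase gene Saa1 was 5585 and 11265. The median of the list was nevertheless -0.05, its summed intensity was 99579 in WT and 111037 in KO, and Scnn1b and Scnn1g were under the floor. Of 9 ileum markers at or above the floor out of 11 measured, 8 were below 0 and the median was -0.68, with sums of 10357 and 6645. Of all 12518 genes at or above the floor, 6001 were below 0. Osr2, a zinc finger factor, was 472 and 215, though its second probe set was 126 and 142, and the hormone gene Gcg was 1745 and 876. Another hormone gene, Nts, was 3013 and 1549. Gcg and Nts were the brightest members of the list in WT, so the sums rest largely on these hormone genes. The hormone gene Fgf15 and the vitamin B12 receptor gene Cubn were under the floor. The 9 proximal small intestine markers at or above it had a median of -0.03 and sums of 8864 and 8895, with Ada (263 and 180.2) and Khk (412 and 363) having the largest differences. The part of regional composition in the Hox differences was not tested.

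Markers of other cell types differed as well. All 15 smooth muscle markers were above 0 as deposited, with a median of 0.40 and none past 2-fold, and this median exceeded that of the Hox genes of groups 9 to 13 (0.30). Of all genes at or above the floor, 52.1% were above 0 as deposited, which is the background for each list here. Des was 4206 in WT and 6581 in KO (0.65), and Myh11 was 5685 and 8349 (0.55). A second probe set of Des, near the floor, had the opposite sign (131 and 120, -0.12). That of Myh11 was higher in KO (411 and 539). Of 16 fibroblast and mesenchyme markers at or above the floor, 14 were above 0, with a median of 0.14 and sums of 35695 and 38645, led by Fn1 (1822 and 2776) and Grem1 (334 and 501). Of 11 markers of enteric neurons and glia, 10 were above 0, with a median of 0.29 and sums of 4049 and 5109, and Snap25 (198 and 285) and Syt1 (179.7 and 255) had the largest differences. The 15 epithelial markers had a median of 0.05, with Muc13 (6736 and 8262) and Cdh1 (6677 and 8119) at the top. No defining marker of smooth muscle was under the floor in the KO pool, and Myocd alone was under it in WT (108). The part of smooth muscle, mesenchyme, or neurons in the Hox differences was not tested.

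The remaining lists went the other way or held few genes. As background for their 2-fold counts, 0.407% of all genes at or above the floor were lower and 0.559% higher. Leukocyte markers had a median of -0.23 over 14 genes (sums of 8929 and 7063), with the granule proteases Gzma (1278 in WT and 587 in KO) and Gzmb (420.3 and 184) at least 2-fold lower and none higher. Adipocyte markers had a median of -0.997 over 8 (sums of 8158 and 3143). Of these, 3 reached the floor in the WT pool alone, a selection that favours the WT side. Over the 5 that reached it in both pools the median was -0.91. Cidec alone was higher in KO (276 and 304). By the measured values, 4 adipocyte markers were at least 2-fold lower in KO. They were Car3 (2941 and 278), Fabp4 (1372 and 648), Adipoq (313 and 24.4), and Cyp2e1 (255 and 80.9), the last 2 of them under the floor in KO, with bounds of 2.46-fold and 2.00-fold. Since Hoxb13 is also expressed in the prostate and each pool included males, urogenital and prostate markers were examined. Of 8 measured, 3 reached the floor, and their summed intensity was 469 in WT and 552 in KO. The secretory genes Pbsn (12.4 and 10.3) and Svs5 (56.1 and 71.6) reached it in neither pool. Upk1b, a bladder gene, was 183 and 290.2 on its brightest probe set lower in KO on 2 others, and slightly higher on another (123 and 133), and Trp63 was 157 and 128.

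**Figure D4:**
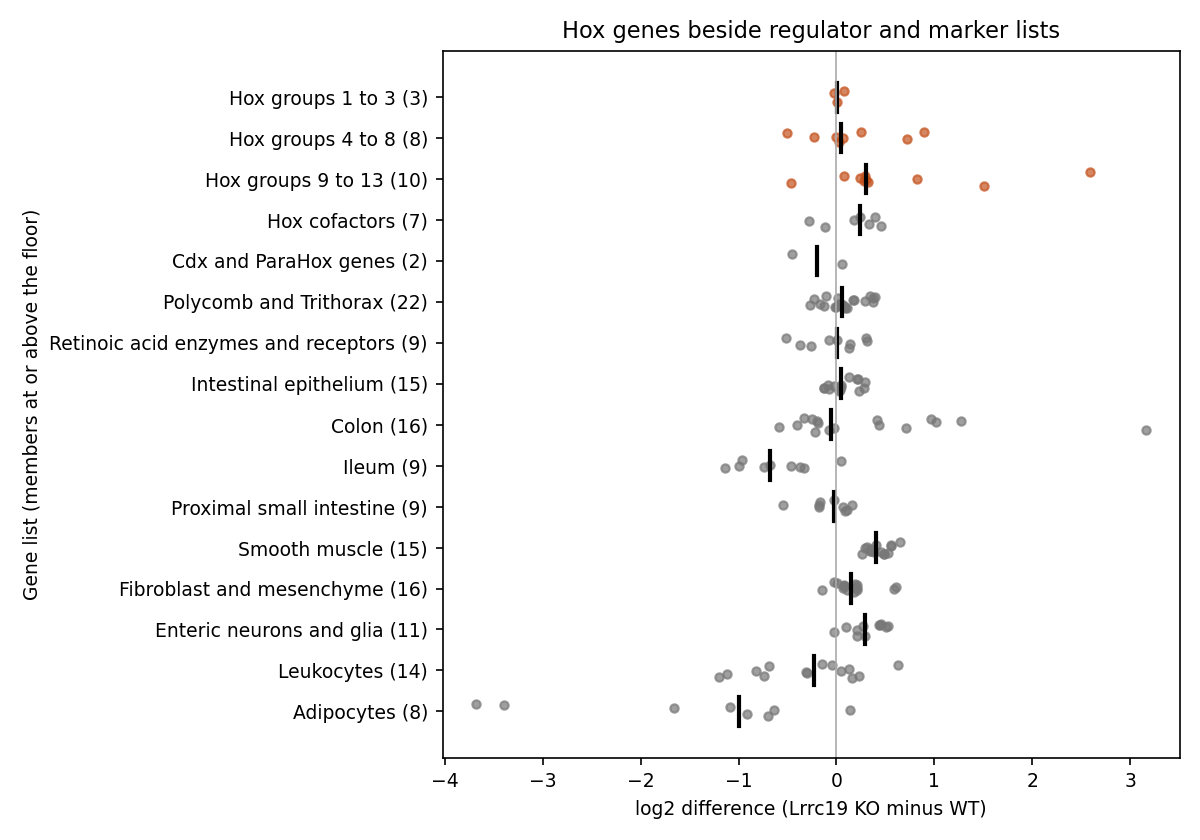
Log2 difference between the KO and WT pools of each gene at or above the floor (points) in 3 classes of Hox genes (orange) and 13 other lists (grey), with the median of each as a black line and the number of genes in brackets. Hox groups 9 to 13 (median 0.30) lie near smooth muscle (0.40) and enteric neurons and glia (0.29), while ileum (-0.68) and adipocytes (-0.997) lie to the left. All values would shift left by 0.50 under the spike-in scaling.

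**Figure D5:**
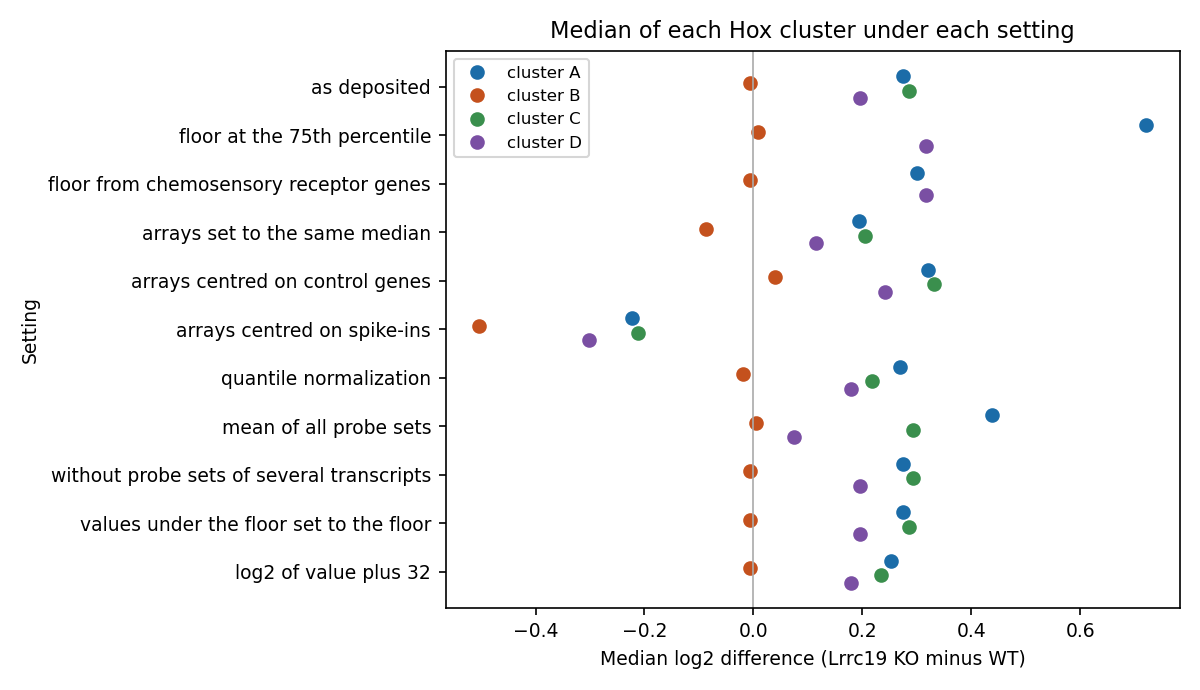
Median log2 difference between the KO and WT pools of the genes of each Hox cluster at or above the floor (coloured points) under the values as deposited and 10 alternatives (rows). Cluster B lies left of cluster A in every row, but many rows could not alter this. Uniform scalings shift all genes alike, and removal of probe sets of several transcripts and values set to the floor left the gap at 0.28. All 4 medians are below 0 when the arrays are centred on the spike-ins (-0.22 for A, -0.50 for B, -0.21 for C, and -0.30 for D). Cluster C has no point in the rows where none of its genes reached the floor.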

How the data were processed

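RNA of 1 WT pool and 1 Lrrc19 KO pool was hybridized to Affymetrix mouse genome arrays. The authors deposited 1 intensity per probe set and array, from 1 to 25842, with medians of 124 (WT) and 131 (KO). The submitters' processing notes name RMA without a version, which usually yields log2 values, so the deposited linear intensities have an unknown scaling, which limits every small difference. The files name no genome build, and coordinates were taken for RefSeq promoters (GRCm38.p6) alone.

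Intensities were converted to log2 in Python 3.11.15 (pandas 2.3.3, numpy 2.4.6). Of 45101 probe sets, 64 controls were left out. Symbols came from the platform table (34945 with 1 symbol, 932 with several, 9160 unnamed), and 34741 of the former were found in RefSeq, whose current symbol was used. The script was tested on simulated data. Every Hox gene at or above the floor was named. All probe sets were given for Hox genes past 2-fold and for group 13. Of each other list, the members past 2-fold and the 2 with the largest difference were named, with Cdx1, Cdx2, and Lrrc19. Of 275 list entries, 238 were measured, and the 9 measured control genes served for scaling alone. The 10 alternatives comprised 2 other floors, 4 scalings, the mean of all probe sets, removal of probe sets of several transcripts, values under the floor set to it, and an offset of 32. The members, lists, and tests were chosen with earlier results of these data known.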

Additional observations from a re-analysis of the deposited data

How the results depend on the processing

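Of 210 values of single Hox genes under 10 alternatives, 25 moved by more than 0.27 on the log2 scale, 21 of them under the spike-in scaling. The others say little on stability, since a new floor leaves a difference as it was and a uniform scaling shifts all alike. No gene past 2-fold changed sign, although 11 of the 16 genes above 0 were below it under the spike-in scaling. With the floor at the 75th percentile (354), 7 Hox genes reached it, and 1 was 2-fold higher by its measured values (Hoxb13, with WT under this floor). The medians were then 0.72 for cluster A, 0.32 for cluster D, and 0.57 for groups 9 to 13. With the floor from chemosensory receptor genes (239.7), 13 reached it, and the medians of cluster D and of groups 9 to 13 were 0.32 and 0.57. Fewer genes tested account for these shifts by construction. Centring on the spike-ins gave medians of -0.26 for all Hox genes, -0.22 for cluster A, -0.50 for B, -0.21 for C, -0.30 for D, -0.49 for groups 1 to 3, -0.45 for groups 4 to 8, and -0.20 for groups 9 to 13, since it subtracts a constant. With the mean of all probe sets, 1 gene was 2-fold higher, because Hoxd13 (1.14) came under the floor, and the medians were 0.44 for cluster A and 0.074 for cluster D. Hoxd13 was 1.002 when values below the floor were raised to it and 1.95 with the offset, and Hoxc8 was 0.62 in the former. No paired analysis was possible because each genotype had 1 array. For the same reason, no array could be left out. Signal over background limits the genes near the floor, such as Hoxc10, and those under it in 1 pool, Hoxc8 and Hoxd13.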
